A study of Mus musculus with 6 samples.

Results

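The 31 genes described here build central nervous system myelin or mark the oligodendrocyte lineage. They were chosen by name, as the probe sets whose single gene symbol in the platform annotation was on the list, and are 31 of the 18193 genes with such a probe set, measured by 62 probe sets in all. Of the 31, 28 had a mean signal above the filter on dim probe sets, while Gjb1, Nkx2-2 and Nkx6-2 lay below it and entered no test. The samples were labelled as mouse choroid plexus epithelium with the words whole brain, 3 from B10.PL wild type (WT) mice and 3 from B10.PL mice labelled RAG-/-, each measured on 1 single-colour array from total RNA. The RAG1 and RAG2 proteins together start antigen receptor rearrangement, on which T and B cell development depends. Which gene was disrupted is not given in the sources used here, nor are the age of the mice or whether an array holds RNA of 1 animal or several, so each p-value speaks only of the variation among these 6 samples, part of which may be technical. A code in the titles joins 1 WT and 1 RAG-/- sample, which gives 3 pairs that carry the replicate numbers used below. In pair 1 the descriptions state that the samples had been swapped and contradict the genotype in both titles. The genotype by description is used unless the title is named, and by title WT replicate 1 and RAG-/- replicate 1 trade places.

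Oligodendrocytes wrap axons in myelin, a stack of membrane held together by a small set of abundant proteins and rich in galactolipids. They arise from precursor cells that carry the growth factor receptor PDGFRA and the proteoglycan NG2 (Cspg4), under the lineage factors OLIG1, OLIG2, SOX10 and NKX2-2, and MYRF then turns on the myelin genes. Choroid plexus is an epithelium over a fibrous and vascular core and has no myelin of its own, so a signal of these genes in it is read here as a level in the dissected sample. In bulk RNA, fewer cells of a type and less RNA per cell cannot be told apart.

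Promoter windows are shown for 4 myelin genes that were highest in the same pair of arrays and for Pdgfra, which was not, because MYRF and SOX10 bind short DNA words that can be looked for there. The words searched on both strands were CTGGCAC and CTGGTAC, the forms of the MYRF motif, and ACAAAG, a core of the SOX motif. A MYRF form and ACAAAG can overlap in the letters AC. The windows are the 250 bases before the annotated start from RefSeq (build GRCm38.p6), written 5′ to 3′ on the strand of the gene with matches to either strand in capitals. They lie at chr11:100574689-100574938 on the plus strand for Cnp, chr7:30914923-30915172 on the minus strand for Mag, chr17:37023399-37023648 on the minus strand for Mog, chr9:120149492-120149741 on the plus strand for Mobp and chr5:75152001-75152250 on the plus strand for Pdgfra.
Cnp: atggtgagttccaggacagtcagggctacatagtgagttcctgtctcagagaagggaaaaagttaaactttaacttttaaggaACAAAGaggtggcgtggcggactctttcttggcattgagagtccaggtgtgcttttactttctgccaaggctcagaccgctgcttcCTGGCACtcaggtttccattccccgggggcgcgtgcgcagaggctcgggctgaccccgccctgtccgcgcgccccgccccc
Mag: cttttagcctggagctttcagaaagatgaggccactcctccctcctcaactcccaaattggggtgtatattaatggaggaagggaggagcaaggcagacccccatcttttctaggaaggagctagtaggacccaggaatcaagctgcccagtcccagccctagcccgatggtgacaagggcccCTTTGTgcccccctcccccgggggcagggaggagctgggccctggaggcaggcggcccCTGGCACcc
Mog: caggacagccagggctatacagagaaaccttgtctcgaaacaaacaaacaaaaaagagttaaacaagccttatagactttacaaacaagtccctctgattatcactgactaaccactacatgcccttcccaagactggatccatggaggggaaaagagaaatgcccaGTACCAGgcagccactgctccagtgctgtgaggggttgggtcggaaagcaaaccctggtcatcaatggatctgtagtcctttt
Mobp: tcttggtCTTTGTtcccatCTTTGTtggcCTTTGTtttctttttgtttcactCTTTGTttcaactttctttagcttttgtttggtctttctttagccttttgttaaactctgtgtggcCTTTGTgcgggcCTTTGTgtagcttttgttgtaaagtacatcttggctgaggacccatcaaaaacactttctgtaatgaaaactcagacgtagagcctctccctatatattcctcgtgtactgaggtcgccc
Pdgfra: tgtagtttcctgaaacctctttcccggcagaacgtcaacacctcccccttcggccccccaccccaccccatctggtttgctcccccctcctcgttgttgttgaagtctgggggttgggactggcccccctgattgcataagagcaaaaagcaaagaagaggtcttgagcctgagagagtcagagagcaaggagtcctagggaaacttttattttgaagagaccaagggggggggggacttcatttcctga
CTGGCAC stood 81 bases before the start of Cnp and 9 bases before that of Mag. Mag has 3 windows, of which the one shown was picked for its match, the first held none of the words, and the second overlaps the one shown and holds the same CTGGCAC, 68 bases before its own start. CTGGTAC stood on the opposite strand 83 bases before the start of Mog. ACAAAG stood once in the Cnp and Mag windows shown. Mobp held 6 copies of it, all on the opposite strand, and Pdgfra held none of the words. The table had windows for 23 of the 31 genes. CTGGCAC or CTGGTAC was found for 3 of these 23 genes, in 4 of their 33 windows, with the Mag site counted in both overlapping windows, against 5.93% of all 32851 windows, and ACAAAG for 6 genes, in 8 windows, with the same double count for Mag, against 16.5% of all windows. The 3 genes with a MYRF form, Cnp, Mag and Mog, are all among those shown. Other members that were highest in the same arrays are not shown. The windows shown therefore do not represent the members, and no contrast with Pdgfra can be drawn from them. A match describes the letters of the window, not binding.

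Median deposited intensities ran from 77.8 to 97.1 over the 6 arrays. RAG-/- replicate 2 stood apart, at 106 on a first principal component holding 48.4% of the variance, where the other 5 arrays lay between -69.3 and 31.2. Transthyretin (Ttr), the secreted protein that defines choroid plexus epithelium, was between 14.69 and 14.83 on the log2 scale in every array, so the labelled tissue was present in all 6. Xist, transcribed from the inactive X chromosome, was at 9.04 and 7.43 in RAG-/- replicates 1 and 3 and between 12.20 and 13.19 in the remaining 4 arrays, while the Y-linked Eif2s3y was at 9.47 and 9.76 in those replicates and between 4.19 and 5.76 elsewhere. Rag1 was dim and below the filter, at 6.54, 4.16 and 4.35 in WT and at 4.60, 6.92 and 6.31 in RAG-/-, so it did not check the genotype labels. The WT and RAG-/- samples of pairs 1 and 3 differed in sex-linked signal as well as in genotype label, and the part of this in the results was not tested.

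Myelin and oligodendrocyte genes were brightest in RAG-/- replicates 2 and 3, the arrays that both readings of the labels call RAG-/-. The highest of the 6 arrays was RAG-/- replicate 2 for 18 of the 31 genes (24.1% of all 18193 genes) and RAG-/- replicate 3 for 12 (16.1% of all genes), and the exception was Pdgfra. By description 30 of 31 genes had a higher mean in RAG-/- (49.8% of all genes), with a median difference of 0.93 on the log2 scale against 0.00 over all genes. Pair 1 ran the other way. RAG-/- was the higher sample for 30 of 31 genes in pair 2 (48.9% of all genes) and for 30 in pair 3 (47% of all genes), but the lower one for 22 of 31 in pair 1 (47% of all genes). The median differences were -0.30, 1.44 and 1.53 in pairs 1, 2 and 3.

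**Figure D1:**
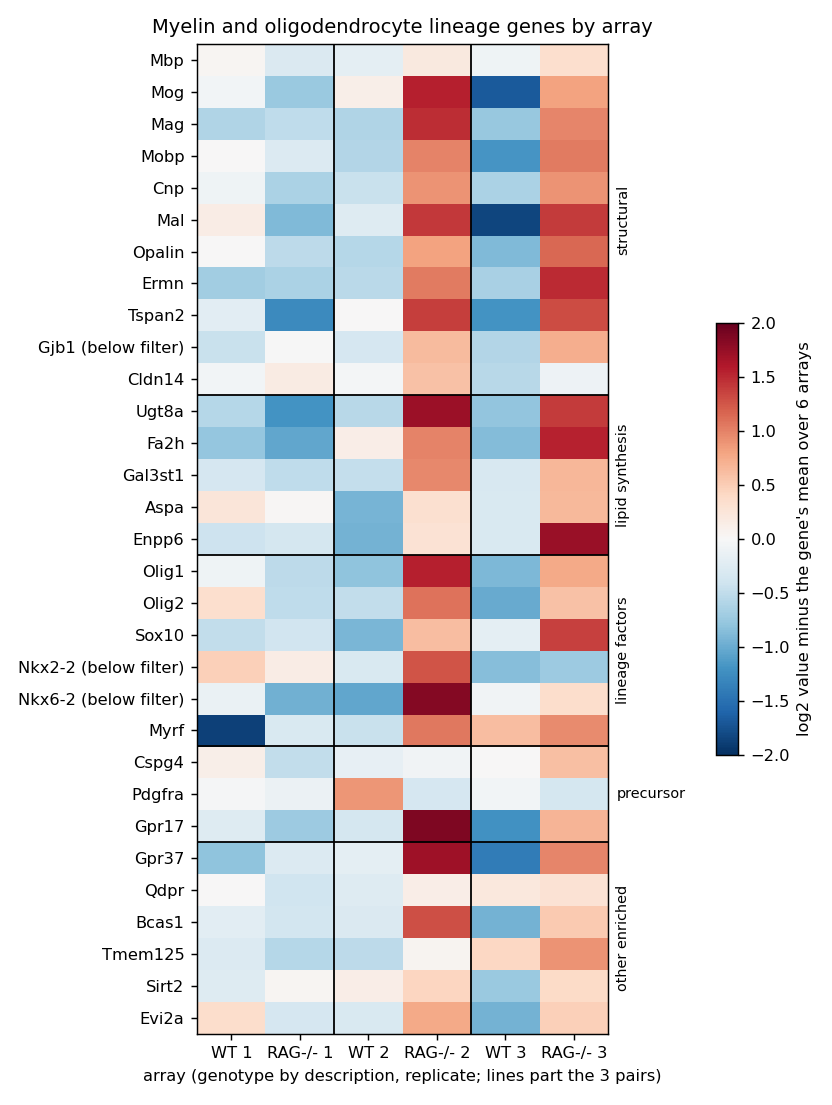
Log2 value of each of the 31 genes in each array minus the mean of that gene over the 6 arrays (colour, from -2 to 2), with genes grouped by role and arrays by pair. RAG-/- replicates 2 and 3 are the red columns for nearly all genes, and Pdgfra is highest in WT replicate 2.

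No member passed the threshold of an adjusted p of 0.05. By description, limma called 0 of 27022 probe sets (0%), with 192 (0.711%) at an unadjusted p under 0.05, and 0 of the 28 members tested. Of these 28, 5 had an unadjusted p under 0.05, all higher in RAG-/-, against 0.421% of the 13537 genes tested, namely Mag, Mobp, Ermn, Olig1 and Gpr37. By title limma again called 0 of 27022 probe sets (0%), with 332 (1.23%) at an unadjusted p under 0.05, and 16 of the 28 members were below that value and higher, against 0.96% of genes. With the pair as a block the calls stayed at 0 by description (0%; 636 probe sets, or 2.35%, at an unadjusted p under 0.05) and came to 1 probe set by title (0.0037%), which was no member. At an unadjusted p under 0.05 the block gave 8 members by description (0.99% of genes) and 21 by title (2.8% of genes), all higher in RAG-/-.

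These counts and medians changed with the weight given to single arrays. With weights estimated for each array, the median over the 28 tested went from 0.96 to 0.35 and that of the 10 structural genes from 1.02 to 0.29, and 0 of 28 members had an unadjusted p under 0.05. When RAG-/- replicate 2 was left out, 28 of 31 genes still had a higher mean in RAG-/- by description (53.2% of all genes), with a median of 0.57, but 0 of 28 had an unadjusted p under 0.05 (0.229% of genes were below it and higher) while limma called 4 probe sets (0.0148%), none of them a member. By title and without that array the median was 0.86 over the 31 genes, and 12 of 28 members had an unadjusted p under 0.05 (1.23% of genes). Among the 28 tested, the median of 0.96 by description was 1.49 without RAG-/- replicate 1, 0.58 without RAG-/- replicate 2 and 0.61 without RAG-/- replicate 3. With pair 1 left out it was 1.56, and 19 members had an unadjusted p under 0.05 (0.687% of genes).

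The structural proteins of myelin were highest in RAG-/- replicate 2 or 3 in all 11 cases. All 11 had a higher mean in RAG-/- under both readings, with a median of 0.95 by description and 1.24 by title. Mal, a membrane proteolipid that takes part in sorting to myelin, was at 11.92, 11.51 and 9.94 in WT replicates 1 to 3 and at 10.89, 13.19 and 13.16 in RAG-/- replicates 1 to 3. RAG-/- replicate 1 lay below 2 of the WT arrays, so the groups overlapped by description, and by title they did not. The difference was 1.29 (SE 0.71; adjusted p = 1 with limma) by description and 1.98 (SE 0.48; adjusted p = 1) by title, the largest of any member by title. Mal differed by 3.22 in pair 3, by 1.68 in pair 2 and by -1.02 in pair 1.

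Mag, an adhesion protein of the inner myelin membrane that faces the axon, was at 8.64, 8.64 and 8.48 in WT and at 8.73, 10.72 and 10.21 in RAG-/-. All RAG-/- arrays lay above all WT arrays, RAG-/- replicate 1 by a margin of less than the range of the WT arrays. The difference was 1.31 (SE 0.49; unadjusted p = 0.0288, adjusted p = 1 with limma). Gjb1, the gap junction protein connexin 32, was dim, with 4.88, 4.98 and 4.74 in WT and 5.31, 5.96 and 6.05 in RAG-/-. At the brightest probe set of each gene, Mag and Gjb1 were the only members whose RAG-/- arrays all lay above WT by description. They were 2 of 31 against 2.65% of all genes. A dimmer probe set of Mbp, Ermn and Tmem125, each above the filter, also had all RAG-/- arrays above WT, at differences of 1.09, 1.29 and 1.68. A Mobp probe set below the filter did so too.

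Mobp, a basic protein of compact myelin, was at 12.92, 12.33 and 11.73 in WT and at 12.63, 13.90 and 13.95 in RAG-/-, a difference of 1.16 (SE 0.42; adjusted p = 1 with limma). Cnp, an enzyme of the uncompacted myelin loops, was at 12.75, 12.39 and 12.21 in WT and at 12.20, 13.74 and 13.74 in RAG-/-. Opalin, a glycoprotein particular to central myelin, was at 8.31, 7.73 and 7.41 in WT and at 7.77, 9.10 and 9.45 in RAG-/-. In all of these RAG-/- replicates 2 and 3 were the brightest arrays and WT replicate 1 came next, so the groups overlapped by description and parted by title.

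Mog, on the outermost face of the sheath, was at 7.74, 7.90 and 6.11 in WT and at 7.04, 9.34 and 8.60 in RAG-/-. Its groups overlapped under both readings, since WT replicate 2 lay above WT replicate 1 and RAG-/- replicate 1. The difference of Mog was 1.08 by description (SE 0.67) and 1.54 by title (SE 0.55). Ermn, which binds the actin skeleton of myelinating cells, differed by 1.25, the tetraspanin Tspan2 by 0.93 and the tight junction protein Cldn14 by 0.43 by description.

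Mbp, which glues the cytoplasmic faces of the membrane together, was at 14.52, 14.28 and 14.40 in WT and at 14.20, 14.68 and 14.81 in RAG-/- at its brightest probe set. The difference was 0.16 (SE 0.19) by description and 0.38 (SE 0.14) by title. The probe set was among the brightest on the arrays (percentile 99.9). Its deposited intensities were 21400, 19500 and 24300 in WT and 19200, 22800 and 33400 in RAG-/-, and the difference was 0.18 on the values as deposited. All 8 Mbp probe sets were higher in RAG-/- by description, with differences between 0.06 and 1.09, and 6 of 8 by title, with differences between -0.15 and 0.93.

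**Figure D2:**
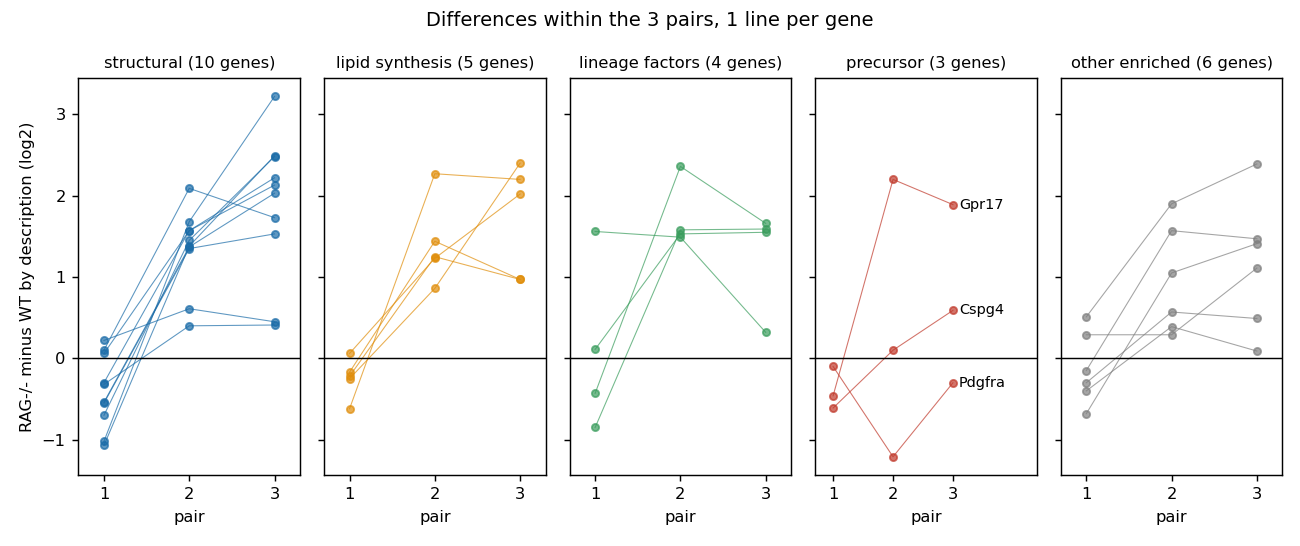
Difference between the RAG-/- and the WT array of each pair, by description, on the log2 scale, with 1 thin line joining the values of each of the 28 genes above the filter and 1 panel per role. Most genes lie near or below 0 in pair 1 and above 0 in pairs 2 and 3, with the brightest Pdgfra probe set below 0 in all 3 pairs.

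The enzymes of myelin lipids went with the structural proteins. All 5 had a higher mean in RAG-/- under both readings, with a median of 1.0 by description and 1.06 by title. Ugt8a, which makes galactosylceramide, was at 10, 10.02 and 9.79 in WT and at 9.38, 12.29 and 11.98 in RAG-/-. RAG-/- replicate 1 was the lowest array of all 6, while RAG-/- replicates 2 and 3 lay far above the narrow range of WT. The difference was 1.28 (SE 0.69; adjusted p = 1 with limma), and 2.27 and 2.20 within pairs 2 and 3.

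Fa2h, which adds the hydroxyl group of the fatty acids in these lipids, was at 8.90, 9.81 and 8.81 in WT and at 8.64, 10.67 and 11.21 in RAG-/-. Gal3st1, which sulfates galactosylceramide, was at 7.09, 6.95 and 7.11 in WT and at 6.92, 8.39 and 8.08 in RAG-/-. Aspa, which frees acetate from N-acetylaspartate, was at 10.01, 8.83 and 9.46 in WT and at 9.79, 10.08 and 10.42 in RAG-/-. In each, RAG-/- replicates 2 and 3 were the brightest arrays, for Aspa by a small margin over WT replicate 1. Enpp6, a choline phosphodiesterase of newly forming oligodendrocytes, differed by 1.10 (SE 0.52), with 9.47 in RAG-/- replicate 3 and between 6.80 and 8.03 in the other 5 arrays.

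Among the lineage factors, OLIG1 and OLIG2 are helix-loop-helix proteins encoded by neighbouring genes on chromosome 16. Olig1 was at 11.46, 10.74 and 10.65 in WT and at 11.03, 13.10 and 12.30 in RAG-/-. Olig2 was at 7.66, 6.82 and 6.31 in WT and at 6.81, 8.40 and 7.91 in RAG-/-. Both had the order seen for Mobp and Cnp, with the groups apart by title and overlapping by description. Olig1 differed by 1.20 (SE 0.50) by description and 1.48 (SE 0.40) by title, and Olig2 by 0.78 (SE 0.51) and 1.34 (SE 0.33).

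Sox10, whose product acts from the precursor stage on, was at 7.52, 7.10 and 7.82 in WT and at 7.63, 8.62 and 9.37 in RAG-/-. The difference of Sox10 was 1.06 (SE 0.47) by description and 0.99 (SE 0.48) by title. Myrf departed from the other factors. It was at 5.96, 7.39 and 8.45 in WT and at 7.52, 8.88 and 8.77 in RAG-/-, with WT replicate 1 the lowest array. Its difference was 1.12 (SE 0.65) by description and 0.08 (SE 0.76) by title, and -0.42 by title without RAG-/- replicate 2. In pair 1 Myrf differed by 1.56, where Sox10 differed by 0.11 and Olig1 and Olig2 by -0.43 and -0.85. The dim homeobox genes Nkx2-2 and Nkx6-2 were highest in RAG-/- replicate 2, at 7.19 and 7.77, and between 4.89 and 6.42 in the other 5 arrays.

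The precursor genes did not act as a group. Pdgfra was at 11.45, 12.36 and 11.43 in WT and at 11.36, 11.15 and 11.13 in RAG-/-. At this brightest probe set all RAG-/- arrays lay below all WT arrays, RAG-/- replicate 1 by a narrow margin. Pdgfra was the only such member, 1 of 31 against 1.93% of all genes. At its other 2 probe sets the groups overlapped by description, with differences of 0 and 0.67 in pair 1. The difference of -0.54 (SE 0.31; adjusted p = 1 with limma) was -0.23 without WT replicate 2, the highest array. Within pairs it was -1.21 in pair 2 and -0.10 and -0.30 in pairs 1 and 3. All 3 Pdgfra probe sets were lower in RAG-/- under both readings, between -0.75 and -0.43 by description and between -0.88 and -0.47 by title, but the one at -0.75 by description was at -0.03 without RAG-/- replicate 2.

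Cspg4 was at 7.56, 7.28 and 7.45 in WT and at 6.95, 7.38 and 8.04 in RAG-/-, a difference of 0.03 (SE 0.35). RAG-/- replicate 1 was the lowest array and RAG-/- replicate 3 the highest, so the groups overlapped, and by title the difference was 0.43 (SE 0.32). Gpr17, a receptor of precursors already committed to differentiate, was at 7.89, 7.80 and 6.94 in WT and at 7.43, 10.01 and 8.83 in RAG-/-. It therefore had the array order of the myelin genes, with a difference of 1.21 (SE 0.62) by description and 1.52 (SE 0.53) by title.

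At the brightest probe set of each gene, the structural genes and the pair of Cspg4 and Pdgfra parted within pairs 2 and 3. The mean of the 10 structural genes tested differed by 1.35 and 1.87 in pairs 2 and 3, and the mean of Cspg4 and Pdgfra by -0.56 and 0.14, so the gap between them was 1.90 and 1.73. In pair 1 both means were lower in RAG-/-, by -0.41 and -0.35, a gap of -0.06. This gap was not tested, and it depended on the Cspg4 probe set. The dimmer Cspg4 probe set differed by -0.83, 1.57 and -0.11 in pairs 1, 2 and 3. In pair 2 it thus went with the structural genes. PDGFRA is also made by fibroblasts and NG2 by pericytes, so genes of both cell types are given beside them. The 11 fibroblast genes had a list mean between 10.99 and 12.27 in WT and between 9.44 and 11.04 in RAG-/-, all 11 lower by description, and the 9 pericyte genes tested between 8.61 and 9.54 in WT and between 8.22 and 8.74 in RAG-/-, all 9 lower. By title 2 of the 11 fibroblast genes and 5 of the 9 pericyte genes were higher in RAG-/-, so the pericyte direction depended on the reading. The size of the fibroblast difference did as well, with a median of -1.08 by description and -0.42 by title. Dcn, a collagen-binding proteoglycan of fibroblasts, was at 13.32, 12.14 and 12.35 in WT and at 11.88, 10.08 and 11.81 in RAG-/-. The part of these cells in the Pdgfra and Cspg4 values was not tested.

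The 6 other genes enriched in oligodendrocytes were all higher in RAG-/- under both readings, with a median of 0.58 by description and 0.75 by title. Gpr37, an orphan receptor of oligodendrocytes, had the largest difference by description of any member when each gene was read at its brightest probe set. It was 1.60 (SE 0.54; unadjusted p = 0.0177, adjusted p = 1 with limma), with 7.52, 8.12 and 6.92 in WT and 8.04, 10.01 and 9.30 in RAG-/-. Bcas1, a marker of cells starting to myelinate, was at 11.40, 11.32 and 10.66 in WT and at 11.25, 12.90 and 12.13 in RAG-/-. Evi2a was at 9.44, 8.79 and 8.15 in WT and at 8.76, 9.84 and 9.56 in RAG-/-. Both parted by title only. Sirt2, a deacetylase of the myelin sheath, differed by 0.57. Qdpr, which recycles tetrahydrobiopterin, differed by 0.03 at its brighter probe set and by 0.47 at the other. Tmem125 differed by 0.25 at its brighter probe set and by 1.68 at the other.

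**Figure D3:**
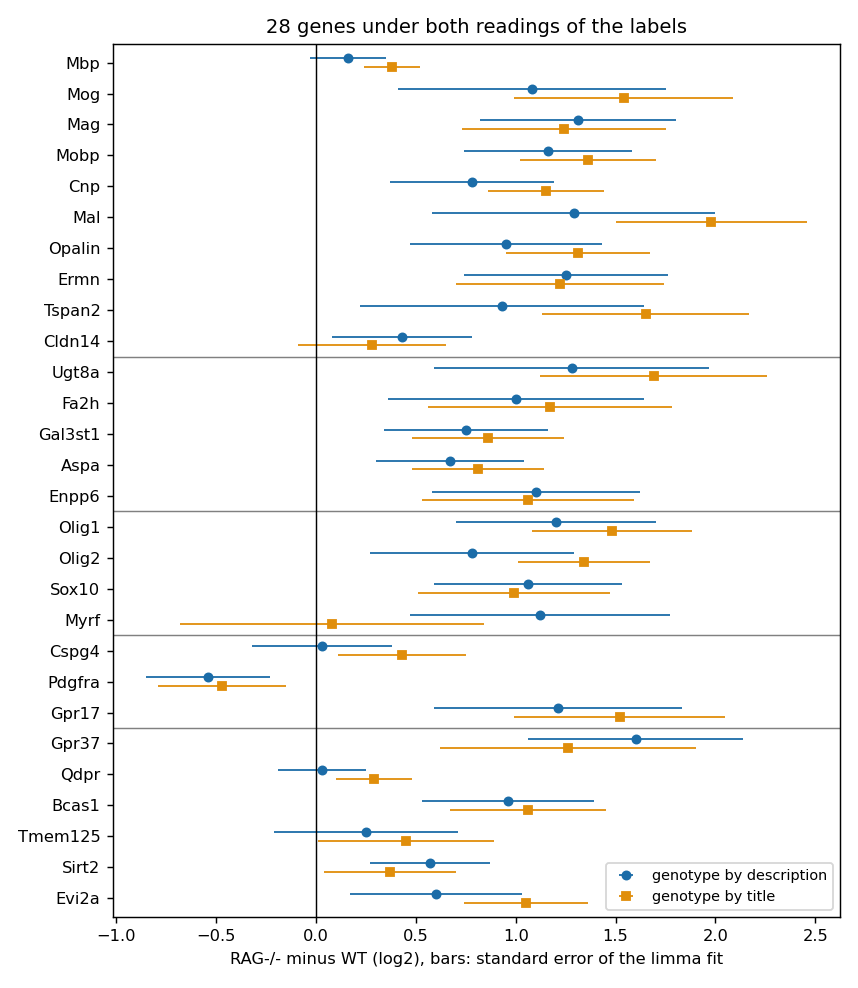
Difference RAG-/- minus WT on the log2 scale for the 28 genes above the filter, with the standard error of the limma fit, by description (circles) and by title (squares), in the order of roles used above. Pdgfra lies below 0 under both readings, and Myrf is near 0 by title alone.

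At the brightest probe set of each gene, the RAG-/- arrays by title all lay above the WT arrays for 11 of 31 genes, against 2.76% of all genes. They all lay below for 0 of 31, against 3.17%, though they did so at a dimmer Pdgfra probe set. The 11 were Mbp, Mobp, Cnp, Mal, Opalin, Aspa, Olig1, Olig2, Gpr17, Bcas1 and Evi2a. With pair 1 left out, both RAG-/- arrays lay above both WT arrays for 25 of 31 genes, against 10.6% of all genes. The 30 of 31 genes with a higher mean by title compare with 47.3% of all genes. Both readings use the same 6 arrays, so neither is separate evidence for the other.

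Probe sets of the same gene gave the same sign in most cases. Of the 62 probe sets, 50 were above the filter, and 47 of these were higher in RAG-/- by description and 45 by title. The 3 that were lower by description were the Pdgfra probe sets. Of the 11 genes with more than 1 probe set above the filter, 0 had probe sets of opposite sign by description and 1, Mbp, by title. Probe sets below the filter are not in this count, and signs could differ there. The dim Evi2a probe set differed by -1.29 by description and 0.02 by title, and a dim Bcas1 probe set by 0.17 and -0.57. The 4 Mobp probe sets tested differed by between 1.16 and 1.43 by description, the 3 of Tspan2 by between 0.72 and 1.14, and the 2 of Sox10 by 0.35 and 1.06.

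Other genes of the pathway were more often higher than lower in RAG-/- by description, without a gene passing the threshold. Of 40 further myelin genes, 34 were tested, of which 25 were higher and 9 lower in RAG-/- by description, with a median of 0.40, and 24 were higher by title, with a median of 0.24. Over all genes, those below the filter included, 49.8% were higher by description and 47.3% by title. None passed the threshold over all probe sets. Of all genes tested, 0.421% by description and 0.96% by title had an unadjusted p under 0.05 with limma and were higher. Among the 34, 3 were below that value by description and 8 by title, all higher in RAG-/-. By description these were Ppp1r14a, an inhibitor of myosin phosphatase, at 0.98, the actin-binding Anln at 1.09 and the membrane protein Pllp at 1.0, followed by the protease Klk6 at 1.37 (unadjusted p = 0.0553). By title the smallest p belonged to Tmeff2 at 1.74, the lysophosphatidic acid receptor Lpar1 at 1.32, the myelin tight junction protein Cldn11 at 1.14 and Efhd1 at 1.12. Of 10 further lineage factors 7 were tested, 4 of them higher by description, a share near that of all genes, with a median of 0.26. By title 6 of these 7 were higher, with a median of 0.53. Of 12 further precursor genes 10 were tested, 7 of them higher, with a median of 0.12 by description and 0.51 by title, and Lhfpl3 had the smallest p by description, at a difference of 1.11 (unadjusted p = 0.0678).

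Neuron and astrocyte list means had the sign of the structural myelin genes in pairs 1 and 2 but not in pair 3. In pair 1 the neuron mean differed by -0.21 and the astrocyte mean by -0.67, beside -0.41 for the structural genes. In pair 2 the 14 neuron genes had a list mean higher by 1.37 in RAG-/- and the 10 astrocyte genes by 1.08, beside 1.35 for the structural myelin genes, while the 13 choroid plexus epithelium genes tested were lower by -0.94. In pair 3 the neuron and astrocyte means differed by -0.59 and -0.26 and the epithelium mean by 0.07, beside 1.87 for the structural myelin genes and 1.71 for the lipid enzymes. RAG-/- replicate 3 had the lowest neuron mean of all 6 arrays, 8.92, and RAG-/- replicate 2 the highest, 12.02. Snap25, a synaptic protein, was at 13.02, 13.94 and 12.37 in WT and at 12.90, 14.05 and 11.38 in RAG-/-, and the astrocyte filament Gfap at 10.57, 8.46 and 10.56 in WT and at 9.90, 10.15 and 10.43 in RAG-/-. The neuron list ran from 9.50 to 10.65 in WT and from 8.92 to 12.02 in RAG-/-, with 10 of 14 genes higher by description. The astrocyte list ran from 10.48 to 11.43 and from 10.22 to 11.99, with 7 of 10 higher. The epithelium mean differed by 0.2 in pair 1. All 13 epithelium genes tested were lower in RAG-/- by description, with a median of -0.19. By title 1 of the 13 was higher, with a median of -0.38. The structural myelin mean was 10.07 and 9.44 in WT replicates 2 and 3 and 11.42 and 11.31 in RAG-/- replicates 2 and 3. The larger structural difference in pair 3 than in pair 2 thus came with a lower WT array, not a higher RAG-/- array. The part of neurons and astrocytes in the myelin values of pairs 2 and 3 was not tested. Of the 8 Schwann cell genes, which would mark peripheral myelin, 3 were tested. Pmp22 differed by -0.33, Egr2 by 0.23 and Cdh19 by 0.40 by description, and all 3 were higher in RAG-/- by title, with a median of 0.48. Their list mean ran from 7.62 to 9.03 in WT and from 7.95 to 8.69 in RAG-/-, and differed by -0.34, 0.33 and 0.31 in pairs 1, 2 and 3. The 6 ependymal genes, of the ciliated cells that line the ventricles, had list means that differed by -0.35, 0.57 and 0.47. Their mean thus had the sign of the structural myelin mean in every pair. In pair 3 all 6 single genes had it too, at between 0.07 and 1.11, and in pair 1 all but Rsph1, at 0.42. In pair 2 the single genes were split. In pair 2 Foxj1, Dynlrb2 and Rsph1 differed by -0.49, -0.2 and -0.61, and Ccdc153, Tmem212 and Enkur by 2.21, 1.98 and 0.53. The ependymal mean ran from 10.21 to 10.96 in WT and from 10.60 to 11.39 in RAG-/-. By description 3 of the 6 were higher and 3 lower, and by title 5 were higher, with the groups apart for Ccdc153 at 1.29 and Tmem212 at 1.34. The part of ependymal and Schwann cells in the myelin values was not tested.

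**Figure D4:**
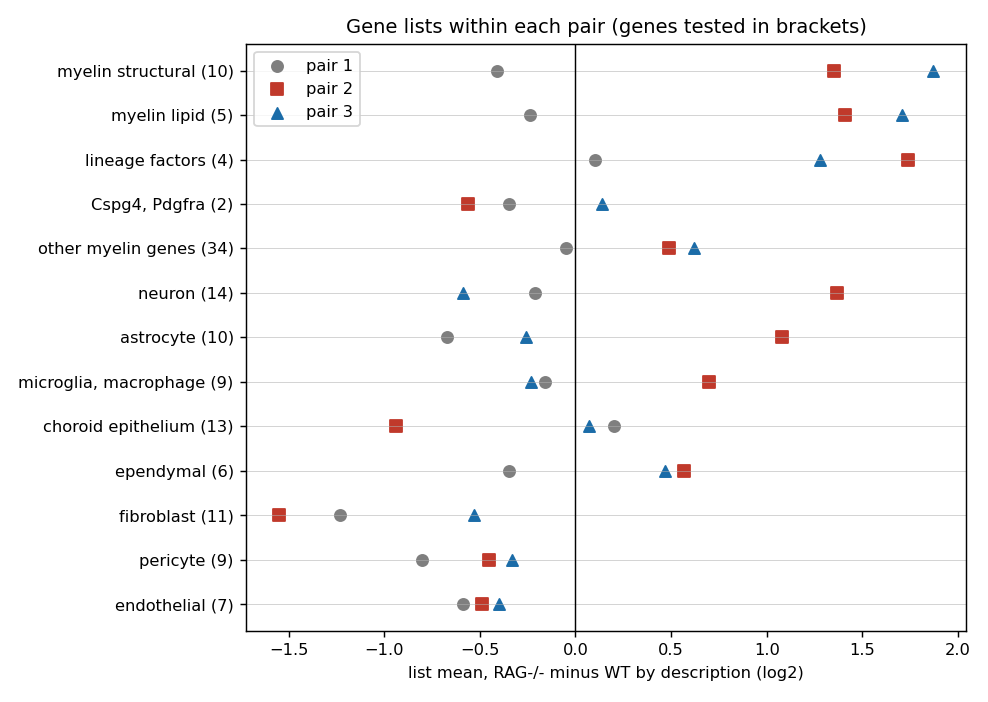
Difference between the RAG-/- and the WT array of each pair in the mean log2 value of each gene list, by description, with the number of genes tested in brackets. Neuron and astrocyte lists lie to the right of 0 in pair 2 alone, while the structural and lipid genes of myelin lie there in pairs 2 and 3.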

How the data were processed

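Gene expression was measured on 6 single-colour arrays. The authors deposited linear intensities of 45101 probe sets for each array. How they were summarised and with which software is not given in the sources used here. Each array averaged 500 after its lowest and highest 2% were dropped, a scaling read from the values. The 64 control probe sets were left out, log2(intensity + 16) was taken, which understates fold changes of dim genes, and the arrays were quantile normalized. Probe sets in the lowest 40% of mean value were left out of tests, leaving 27022. The brightest probe set stood for a gene. Genotypes were compared with limma 3.58.1 with an intensity-dependent prior in R 4.3.3. Tests were two-sided, p-values were adjusted by the Benjamini-Hochberg method across the 27022 probe sets, and the threshold was 0.05. The fit was checked on simulated data.

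The members, lists and tests were chosen with earlier results of these data known. Values in every array were given for 17 genes fixed by name and for members whose groups did not overlap. Of the pathway lists at most the 4 genes with the smallest p were named. Values in every array of Gpr37 and the values of Enpp6, Nkx2-2, Nkx6-2, the Schwann cell and ependymal genes, Xist and Eif2s3y were added after they had been seen, as were the promoter words and the fit by title without RAG-/- replicate 2.

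Titles carry a code shared by 1 sample of each genotype. As a check of the pairing, the 2 members of a pair were compared in how they departed from their group means, with correlations of 0.25, 0.39 and 0.58 by description. Each exceeded the limit of 0.1, the codes were therefore treated as pairs, and a blocked fit was added. Alternatives were the title genotype, other scaling, pseudocounts and filters, array weights, and leaving out arrays or pairs.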

Additional observations from a re-analysis of the deposited data

How the results depend on the processing

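No alternative called a member past the threshold. The medians of the structural, lipid, lineage factor and other enriched genes stayed above 0 in all 21 alternatives, between 0.29 and 1.87 for the structural genes, while the precursor median ran from -0.27 to 0.57. By title the precursor median was 0.43 with and without the replicate block, and 0.57 without RAG-/- replicate 2, a setting chosen after seeing the data. In these fits and by description the middle value of the 3 precursor genes was that of Cspg4, so this median followed 1 gene. With the replicate block by title 1 probe set was called, and with pair 2 left out 2 were. With array weights the median over all members tested was 0.35 and that of the structural genes 0.29, and with pair 1 left out they were 1.56 and 1.87. Without single arrays the number of probe sets called ran from 0 to 4, the median of all members tested from 0.58 to 1.49, that of the structural genes from 0.68 to 1.66 and that of the precursors from -0.27 to 0.28.

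Differences near 0 changed sign. Cspg4 was at -0.05 as deposited, -0.01 with a common median, -0.21 with array weights, -0.01 with pair 2 left out, -0.25 with pair 3 left out, and between -0.27 and 0.28 without single arrays. Qdpr was at -0.14 with array weights, -0.15 with pair 2 left out, 0.00 with pair 3 left out, and between -0.11 and 0.23 without single arrays. Mbp was at -0.03 with array weights, Tmem125 between -0.14 and 0.61 without single arrays, and Myrf at -0.42 by title without RAG-/- replicate 2. The cause was not tested. The number of arrays limits the precision of all values.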
